A study of Mus musculus with 8 samples.

Results

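The 9 genes described here encode the receptor chains through which T cells sense interleukin-6, interleukin-12, interleukin-23, interleukin-10 and interferon-gamma: Il23r, Il12rb1, Il12rb2, Il6ra, Il6st, Il10ra, Il10rb, Ifngr1 and Ifngr2. They were chosen by name, each matched 1 of the 54532 genes in the deposited count table, and all 9 were among the 14428 genes tested. Expression was measured by RNA sequencing of CD4 T cells from mouse spleen that had been cultured for 2 days under conditions that drive pathogenic Th17 differentiation, the route to the helper cells that make interleukin-17 and drive autoimmune disease in mice. There were 4 libraries with the wild-type label and 4 with the Cyp1b1 knockout label, and both groups had the same tissue, cell type, culture treatment and time. The sources used here do not give strain, sex, age, the nature of the Cyp1b1 allele or the cytokines in the culture. Whether replicates are separate mice or cultures is not stated, so each p-value measures only the spread between these libraries, and that spread may be technical.

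These receptors combine different chains, most of which carry Janus kinases on their inner tails, and pass the signal to STAT transcription factors. IL-12Rβ1 is shared: with IL-12Rβ2 it binds interleukin-12, whose signal through STAT4 drives Th1 cells, and with IL-23R it binds interleukin-23, whose signal through STAT3 sustains pathogenic Th17 cells. Interleukin-6, which starts Th17 differentiation, binds IL-6Rα and recruits gp130, the product of Il6st, which many other cytokines of that family also use. Interleukin-10 signals through IL-10Rα and the widely shared IL-10Rβ, and interferon-gamma through IFNGR1, the main binding chain, and IFNGR2, the chain that recruits JAK2.

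Depth ran from 8918342 to 15667313 counts per library, the lowest in wild type 2. Cyp1b1, the gene named in the genotype, went against the labels. It stood at 3.75 to 4.74 CPM (counts per 1000000, scaled between libraries by TMM) in wild type 1 to 4. In knockout 1 to 4 it stood at 154.1, 219.7, 231.1 and 134.1 CPM (log2 fold change 5.39, SE 0.24, edgeR adjusted p = 9.91e-07). Knockout 1 and 4 were thus lower in Cyp1b1 than knockout 2 and 3. Counts per gene do not show which exons were read, so each direction below rests on the labels as deposited. CD4 T cell markers were abundant, and the summed CPM of 8 of them ran from 3560 to 3731 in the libraries labelled wild type and from 3415 to 3705 in those labelled knockout. Markers of B cells were present and 13 of 15 fell, where 14.6% of all tested genes were called lower (edgeR adjusted p under 0.05). Their median log2 fold change was -0.94. Summed levels were 536.4 to 818.4 CPM under the wild-type label and 424.0 to 596.9 CPM under the knockout label. Ighm, which did not pass, was the most abundant of the 15 and the largest part of these sums. Summed dendritic cell markers ran from 75.2 to 85.7 and from 65.3 to 82.0 CPM. Of the 4 tested (median log2 fold change -0.68), Flt3 and Zbtb46 fell and Batf3, which activated T cells also express, rose. The sum therefore need not follow dendritic cells alone. Clec9a and Cd209a were at 0 counts in all 8 libraries, which in the smallest library allows up to 0.336 CPM (3 counts). Monocyte and macrophage markers ran from 14.4 to 17.4 and from 6.93 to 9.99 CPM, with Lyz2 at no more than 9 counts in any library, NK cell markers from 20.4 to 23.6 and from 10.6 to 16.3 CPM, and CD8 T cell markers from 15.4 to 18.3 and from 15.3 to 17.7 CPM. Receptor chains such as Ifngr1, Il10ra and Il6ra are also made by B cells and myeloid cells, and the part of those cells in the results below was not tested. In bulk RNA, fewer cells that carry a transcript and less of it per cell cannot be told apart.

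Of the 9 chains, Il23r, Il6st and Il12rb1 rose in the libraries labelled knockout, Ifngr1 and Ifngr2 fell, and Il12rb2, Il6ra, Il10ra and Il10rb did not pass. The 5 called chains compare with 30.4% of all tested genes called between the labels (edgeR quasi-likelihood test, adjusted over all of them by Benjamini-Hochberg, threshold 0.05). The rises compare with 15.7% of genes called higher and the falls with 14.6% called lower. The median log2 fold change of the 9 was -0.0031, against -0.00099 over all tested genes. In size, Il23r was 1.60-fold higher, and it alone of the chains passed with a difference of at least 1.5-fold, as 10.2% of tested genes did. Ifngr1 was 1.35-fold lower, and the other 3 called chains differed by no more than 1.22-fold. Over 17 alternative ways of processing or leaving out libraries, the calls of Il23r and Ifngr1 held in each, that of Il6st in 15, that of Il12rb1 in 11 and that of Ifngr2 in 8.

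**Figure D1:**
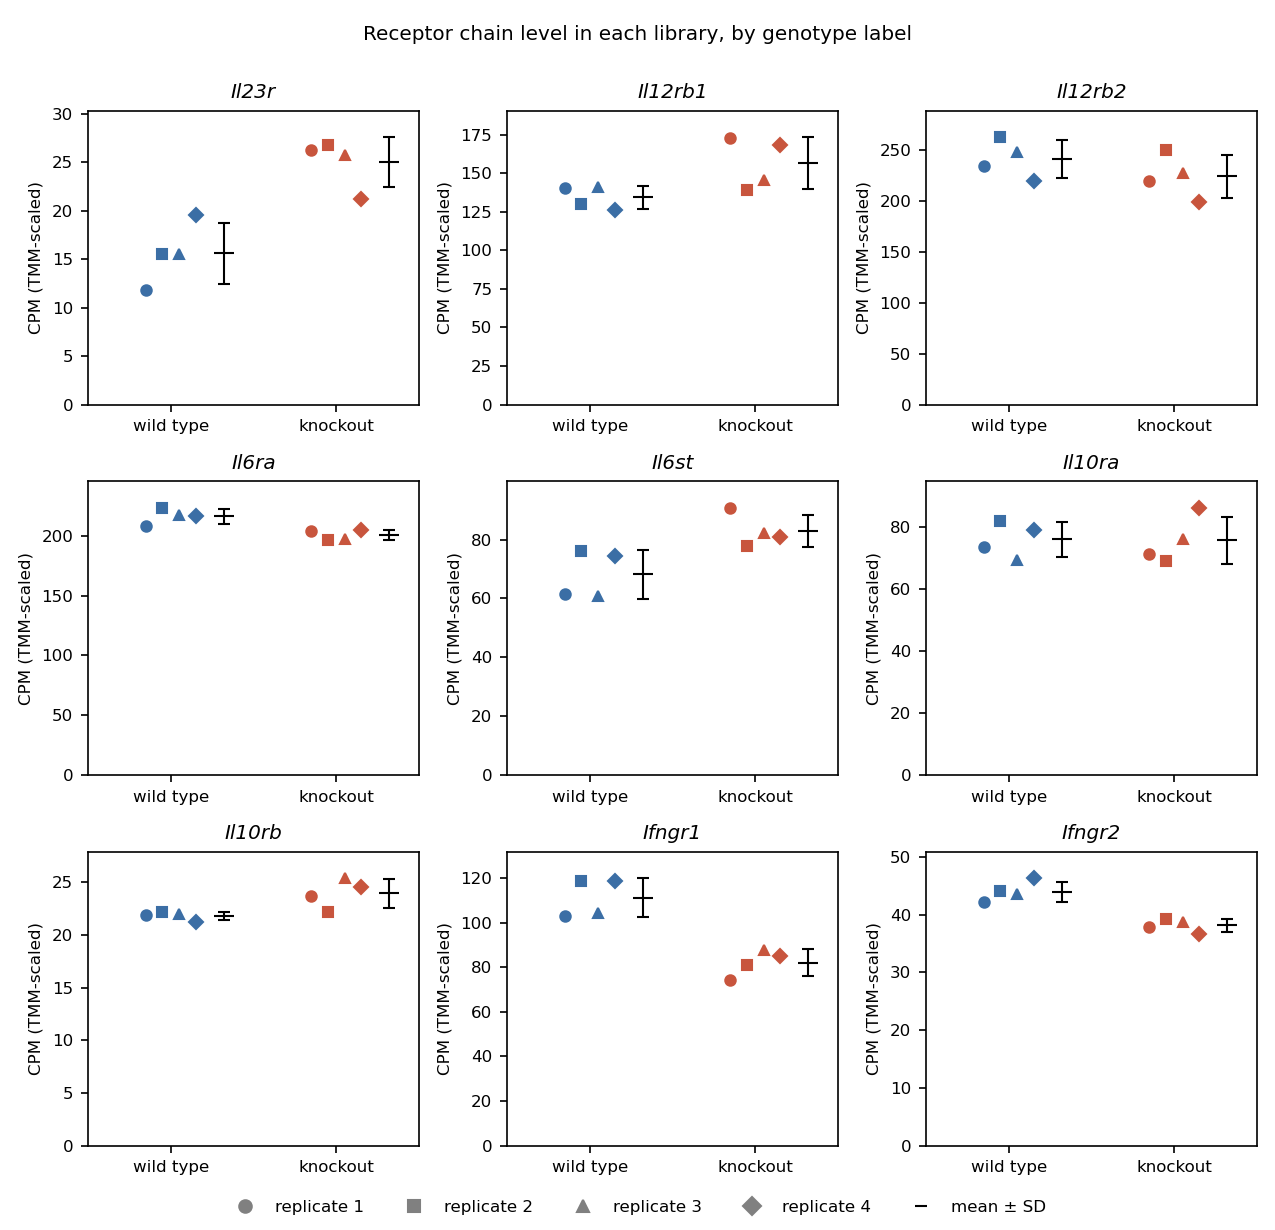
CPM (TMM-scaled, axes from 0) of each receptor chain in the 8 libraries, by genotype label; symbols mark replicates 1 to 4 and bars the mean ± SD of 4 libraries. The groups separate for Il23r, Il6st, Ifngr1, Ifngr2, Il6ra and, by a narrow margin, Il10rb, and overlap for Il12rb1, Il12rb2 and Il10ra.

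Il23r (ENSMUSG00000049093), the chain specific for interleukin-23, spans 67422932 to 67491855 of chromosome 6 in GRCm38 (minus strand), the build of all positions given here. It stood at 11.9, 15.5, 15.5 and 19.6 CPM in wild type 1 to 4 and at 26.3, 26.8, 25.7 and 21.3 CPM in knockout 1 to 4. The lowest knockout-labelled library, replicate 4, was above the highest wild-type-labelled one, also replicate 4, and the spread within each label was wide. Means were 15.6 ± 3.16 and 25.04 ± 2.56 CPM (SD, n = 4 each), and the log2 fold change was 0.68 (SE 0.13, 95% interval 0.42 to 0.94, edgeR adjusted p = 0.000256). With knockout 1 and 4 alone, which lay apart from 2 and 3 in earlier results of these data, it was 0.61, and with 2 and 3 alone 0.75. Because the pairs were chosen by that likeness, the spread within a pair is narrowed by the choice. Adjusted p-values and calls with a pair alone are therefore descriptive, here and below. Il23r rests on the fewest counts of the 9 chains, from 141 to 387 per library.

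Il12rb1 (ENSMUSG00000000791; chromosome 8, plus strand, 70808449 to 70821424), the chain shared by the receptors for interleukin-12 and interleukin-23, rose less and less uniformly. It had 140.7, 130.2, 140.8 and 125.9 CPM in wild type 1 to 4 and 172.9, 139.0, 145.3 and 168.5 CPM in knockout 1 to 4. Knockout 1 and 4 lay well above every wild-type-labelled library, whereas knockout 2 fell inside their range. Means were 134.4 ± 7.50 and 156.4 ± 16.8 CPM (SD, n = 4 each), and the fitted log2 difference was 0.22 (SE 0.075, edgeR adjusted p = 0.0295). With knockout 1 and 4 alone the log2 fold change was 0.35. With knockout 2 and 3 alone it was 0.086 and the gene did not pass (edgeR adjusted p = 0.404). The call also ended without wild type 2, wild type 4, knockout 1 or knockout 4 (adjusted p = 0.0952, 0.113, 0.105 and 0.0893) and with scaling by library totals (0.0886).

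Il12rb2 (ENSMUSG00000018341; chromosome 6, minus strand, 67291318 to 67376188), the chain that makes a cell responsive to interleukin-12, is the neighbour of Il23r, with 46.7 kb between them. Its CPM were 234.4, 262.2, 247.6 and 219.1 in wild type 1 to 4 and 219.7, 249.4, 226.9 and 198.9 in knockout 1 to 4. The ranges overlapped, and in both labels replicate 2 was highest and replicate 4 lowest. The log2 fold change was -0.11 (SE 0.073, 95% interval -0.26 to 0.045, edgeR adjusted p = 0.287). It passed as lower with knockout 1 and 4 alone (-0.19, adjusted p = 0.0411) and was -0.0090 with knockout 2 and 3 alone. Its level is uncertain, since in the GENCODE M21 annotation 1519 of its 3794 exonic bases, 40.04%, are also exons of Serbp1 on the opposite strand. Serbp1, an mRNA-binding protein gene named for this overlap alone, is abundant (691.2 and 605.9 CPM), and no step that keeps strand is stated. Serbp1 was itself called lower, near the threshold and with overlapping libraries (log2 fold change -0.19, edgeR adjusted p = 0.049). Whether shared reads bear on the Il12rb2 difference was not tested.

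The 2 neighbours were also compared within each library. The ratio of Il23r to Il12rb2, in counts per kb of gene length, was 0.0771, 0.0903, 0.0957 and 0.136 in wild type 1 to 4 and 0.183, 0.164, 0.173 and 0.163 in knockout 1 to 4. All 4 knockout-labelled libraries were above all 4 others, and the ratio was 1.75-fold higher (exact two-sided permutation p = 0.0286, the smallest that 70 assignments allow, and 0.0571 adjusted over the 6 chain ratios computed). A ratio inside a library does not depend on how libraries are scaled to each other, but this one carries the uncertainty of Il12rb2. Against the shared chain, Il23r/Il12rb1 was 0.139, 0.197, 0.182 and 0.257 in wild type 1 to 4 and 0.251, 0.318, 0.292 and 0.208 in knockout 1 to 4. These ranges overlapped, since wild type 4 lay above knockout 1 and 4 (exact permutation p = 0.0857, adjusted 0.114). Il12rb2/Il12rb1 ran from 1.80 to 2.18 and from 1.28 to 1.94 (exact permutation p = 0.114, adjusted 0.114), with knockout 1 and 4 below all the wild-type-labelled libraries and knockout 2 and 3 closer to them. In each of the 8 libraries the Il23r transcript was the scarcer of the pair that forms the interleukin-23 receptor.

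**Figure D2:**
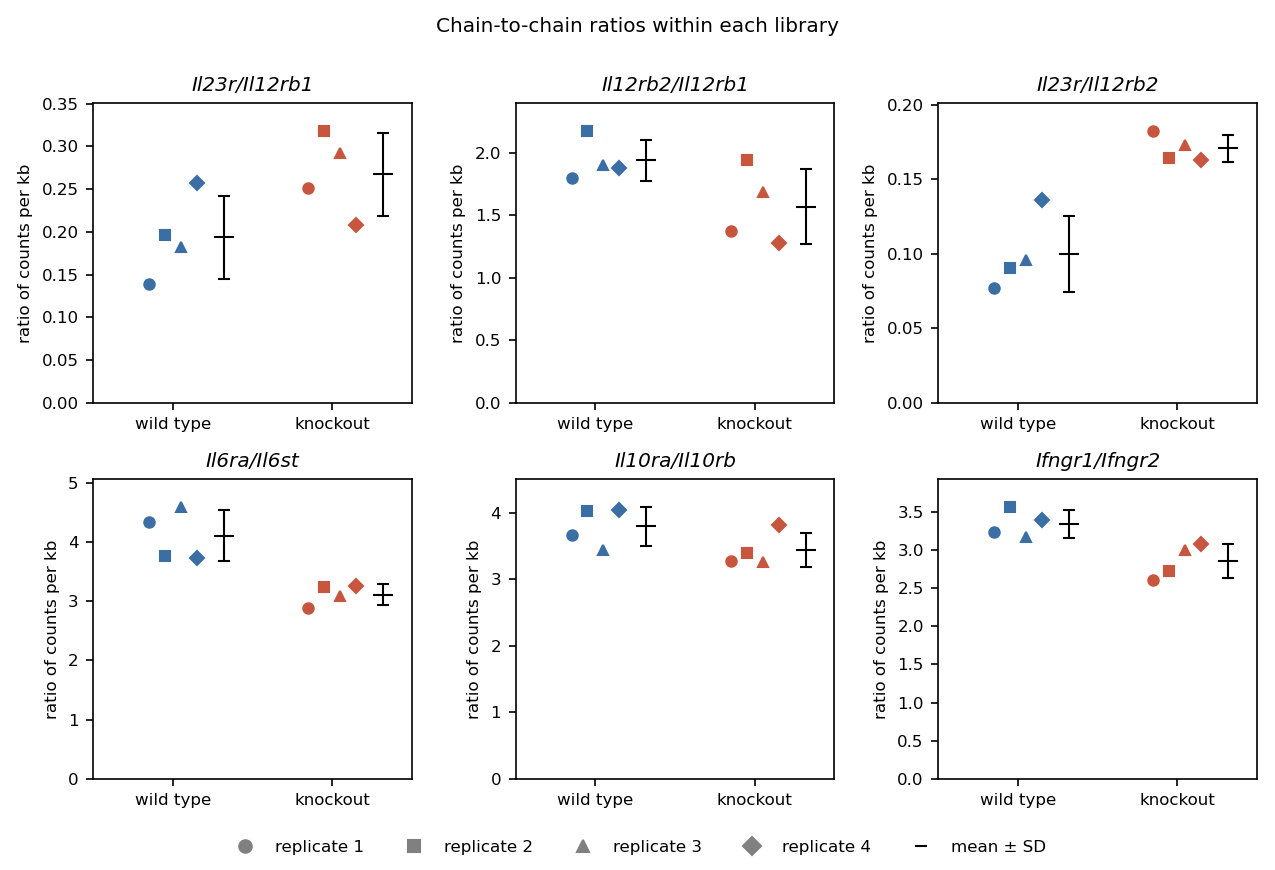
Ratio of 2 chains in counts per kb of gene length (axes from 0) within each library, by genotype label; symbols mark replicates 1 to 4 and bars the mean ± SD of 4 libraries. Il23r/Il12rb2 is higher, and Il6ra/Il6st and Ifngr1/Ifngr2 are lower, in all 4 knockout-labelled libraries than in any wild-type-labelled one.

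Il6st (ENSMUSG00000021756; chromosome 13, plus strand, 112464070 to 112510086), the gene of gp130, had 61.6, 76.2, 60.7 and 74.5 CPM in wild type 1 to 4 and 90.8, 77.9, 82.2 and 81.0 CPM in knockout 1 to 4. The labels did not overlap, but the gap between wild type 2 and knockout 2 was small beside the spread within wild type. Means were 68.3 ± 8.26 and 83.0 ± 5.53 CPM (n = 4 each, SD), which gave a log2 fold change of 0.28 (SE 0.082, 95% interval 0.12 to 0.45, edgeR adjusted p = 0.0106). The call ended without wild type 3 (0.23, adjusted p = 0.0632) and with knockout 2 and 3 alone (0.24, adjusted p = 0.0543).

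Il6ra (ENSMUSG00000027947; chromosome 3, minus strand, 89864059 to 89913196), the chain that gives specificity for interleukin-6, pointed the other way. It had 208.1, 223.4, 217.1 and 216.5 CPM in wild type 1 to 4 and 203.7, 196.5, 197.0 and 204.9 CPM in knockout 1 to 4. Every knockout-labelled value was under every wild-type-labelled one, yet the gene did not pass, at a log2 fold change of -0.11 (SE 0.059, 95% interval -0.23 to 0.014, edgeR adjusted p = 0.173). Scaling by library totals, with which the median of all tested genes was -0.05, made it pass (-0.16, adjusted p = 0.044). The ratio Il6ra/Il6st was 4.34, 3.76, 4.59 and 3.73 in wild type 1 to 4 and 2.88, 3.24, 3.08 and 3.25 in knockout 1 to 4. It was lower in all 4 knockout-labelled libraries, by 0.40 on the log2 scale (exact two-sided permutation p = 0.0286, adjusted 0.0571 over the 6 ratios). Adam17, the protease that sheds IL-6Rα from the cell surface, rose from 69.9 ± 2.09 to 87.1 ± 5.34 CPM (log2 fold change 0.32, edgeR adjusted p = 0.00116), and Adam10, a related sheddase, had 0.024 (adjusted p = 0.834).

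Because Il23r and Il6st rose, their promoters are shown, as the 250 bases before the start site in RefSeq (GRCm38.p6; Il23r minus strand, chr6:67491856-67492105; Il6st plus strand, chr13:112463820-112464069), read in the direction of the gene. Capitals mark matches on either strand to 5 motifs: TTCNNNGAA for STAT factors, TGANTCA for AP-1, the ROR half-site AGGTCA, the AhR response core GCGTG and the NFAT core GGAAA. RefSeq windows were at hand for 6 of the 9 genes, not for Il10ra, Il10rb and Il12rb1.
Il23r: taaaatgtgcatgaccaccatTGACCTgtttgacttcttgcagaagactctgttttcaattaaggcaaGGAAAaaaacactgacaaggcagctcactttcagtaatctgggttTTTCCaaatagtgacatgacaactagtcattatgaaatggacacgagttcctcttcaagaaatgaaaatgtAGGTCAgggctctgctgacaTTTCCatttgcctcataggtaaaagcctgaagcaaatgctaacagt
Il6st: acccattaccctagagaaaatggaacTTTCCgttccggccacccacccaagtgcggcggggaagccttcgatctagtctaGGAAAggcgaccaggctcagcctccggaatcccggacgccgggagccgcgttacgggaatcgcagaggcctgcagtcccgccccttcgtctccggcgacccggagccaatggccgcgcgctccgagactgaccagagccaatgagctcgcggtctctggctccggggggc
The Il23r window, 39.6% G and C, held 2 ROR half-sites, at 229 to 224 and 66 to 61 bases before the start, and 3 NFAT cores. ROR half-sites were in 14% of all 32851 promoter windows and NFAT cores in 55.6%. In Il6st, at 66% G and C, only 2 NFAT cores matched. The STAT motif, in 7.02% of windows, matched among the 6 genes in Il12rb2 alone, as TTCTCAGAA at 123 to 115 bases before the start, and Il12rb2 also held 4 AhR cores, a motif found in 28.2% of windows. A match is a run of letters and shows no binding.

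Both chains of the interferon-gamma receptor fell. Ifngr1 (ENSMUSG00000020009; chromosome 10, plus strand, 19591949 to 19610229), the binding chain, had 102.8, 118.8, 104.1 and 118.5 CPM in wild type 1 to 4 and 74.3, 80.9, 87.9 and 85.2 CPM in knockout 1 to 4. The 2 sets were well apart, with the highest knockout-labelled library clear of the lowest wild-type-labelled one. Means were 111.0 ± 8.78 and 82.1 ± 5.90 CPM (mean and SD of 4 libraries each), the log2 fold change being -0.44 (SE 0.074, 95% interval -0.59 to -0.28, edgeR adjusted p = 9.15e-05). The value was -0.46 with knockout 1 and 4 alone and -0.39 with 2 and 3 alone.

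Ifngr2 (ENSMUSG00000022965; chromosome 16, plus strand, 91547072 to 91565623) had 42.1, 44.1, 43.5 and 46.3 CPM in wild type 1 to 4 and 37.8, 39.2, 38.7 and 36.7 CPM in knockout 1 to 4. Values within a label lay close together and the labels did not overlap, but the change was small and its call was near the threshold (log2 fold change -0.21, SE 0.077, edgeR adjusted p = 0.0458). Dropping any 1 of wild type 2, 3 or 4 or knockout 1, 3 or 4 ended the call (adjusted p from 0.0704 to 0.113), as did either pair of knockout libraries alone (0.0513 for 1 and 4, 0.194 for 2 and 3) and no low-count filter (0.241). The fall of Ifngr1 was the larger within libraries too: Ifngr1/Ifngr2 was 3.23, 3.57, 3.17 and 3.39 in wild type 1 to 4 and 2.60, 2.73, 3.001 and 3.07 in knockout 1 to 4, without overlap (exact two-sided permutation p = 0.0286, adjusted 0.0571 over the 6 ratios).

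The promoters of this falling pair, in the same build and window (Ifngr1 plus strand, chr10:19591699-19591948; Ifngr2 plus strand, chr16:91546809-91547058), share no motif of the 5, again with matches in capitals.
Ifngr1: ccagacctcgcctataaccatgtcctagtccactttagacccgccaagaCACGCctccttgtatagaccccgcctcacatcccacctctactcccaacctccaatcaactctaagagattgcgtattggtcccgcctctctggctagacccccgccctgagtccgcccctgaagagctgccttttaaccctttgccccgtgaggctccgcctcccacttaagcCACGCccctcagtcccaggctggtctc
Ifngr2: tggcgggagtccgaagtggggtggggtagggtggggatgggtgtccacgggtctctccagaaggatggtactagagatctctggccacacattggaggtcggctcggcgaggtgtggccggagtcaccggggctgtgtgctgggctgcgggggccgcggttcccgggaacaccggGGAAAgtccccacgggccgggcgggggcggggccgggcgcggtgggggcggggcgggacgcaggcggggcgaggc
The Ifngr1 window held 2 AhR cores, at 201 to 197 and 27 to 23 bases before the start, and the Ifngr2 window, 74% G and C, held 1 NFAT core.

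Neither chain of the interleukin-10 receptor passed. Il10ra (ENSMUSG00000032089; chromosome 9, minus strand, 45253837 to 45269149), the binding chain, had 73.5, 82.0, 69.3 and 78.9 CPM in wild type 1 to 4 and 71.4, 69.1, 75.9 and 86.1 CPM in knockout 1 to 4. The ranges covered each other almost wholly, and the log2 fold change was -0.0031 with a 95% interval of -0.17 to 0.16 (edgeR adjusted p = 0.982), its sign turning under several alternatives. Il10rb (ENSMUSG00000022969; chromosome 16, plus strand, 91406164 to 91425834), also part of the receptors for interleukin-22 and interferon-lambda, had 21.9, 22.1, 21.9 and 21.2 CPM in wild type 1 to 4 and 23.7, 22.2, 25.4 and 24.6 CPM in knockout 1 to 4. Knockout 2 was barely above the wild-type-labelled libraries, and the gene did not pass (log2 fold change 0.14, 95% interval -0.054 to 0.33, edgeR adjusted p = 0.275). Their ratio, Il10ra/Il10rb, ran from 3.44 to 4.04 and from 3.26 to 3.81, with overlap (exact permutation p = 0.114, adjusted 0.114). The level of Il10rb is uncertain, since 569 of its 3808 exonic bases, 14.94%, are also exons of Gm21970 on the same strand. Gm21970 had 0 counts, and whether reads from the shared bases were lost was not tested. On chromosome 16, Il10rb sits between the interferon type I receptor genes, 0.575 kb from Ifnar2 and 59.4 kb from Ifnar1, and 121.2 kb from Ifngr2. Within this cluster Ifnar1 and Ifnar2 had log2 fold changes of 0.11 and -0.070 and did not pass (edgeR adjusted p = 0.221 and 0.618), so Ifngr2 was the only member of the 4 that was called.

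**Figure D3:**
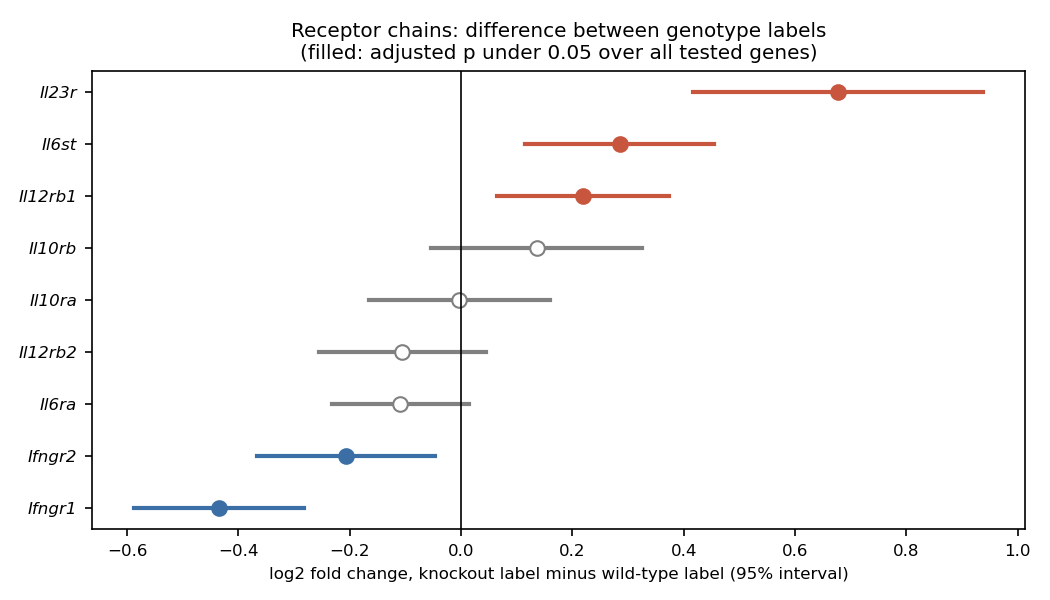
Log2 fold change of the 9 chains, knockout label minus wild-type label, from the edgeR fit, with 95% intervals; filled points have an adjusted p under 0.05 over all tested genes (red higher, blue lower). Il23r lies highest at 0.68 and Ifngr1 lowest at -0.44, and the intervals of Il12rb2, Il6ra, Il10ra and Il10rb include 0.

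In all, 6 of the 9 chains had no overlap between the labels, 3 higher (Il23r, Il6st and Il10rb) and 3 lower (Ifngr1, Ifngr2 and Il6ra), where 29.2% of all tested genes did not overlap. Of these 6, Il10rb and Il6ra did not pass.

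Compared per length, as TMM-scaled CPM per kb of gene length, the chains spanned about an order of magnitude. In the libraries labelled wild type Il12rb2 came first (63.5 ± 4.85, with the uncertainty given above), followed by Ifngr1 (39.0 ± 3.08), Il12rb1 (32.7 ± 1.83), Il6ra (25.0 ± 0.73) and Il10ra (21.7 ± 1.61). Ifngr2 followed at 11.7 ± 0.46, and Il23r (6.28 ± 1.27), Il6st (6.15 ± 0.74) and Il10rb (5.73 ± 0.10) came last (SD, n = 4 each). The place of Il10rb carries the uncertainty of its shared exons. The ranges of neighbours in this order overlapped only between Il23r and Il6st and between Il6st and Il10rb. In the libraries labelled knockout, Il12rb1 (38.1 ± 4.09) stood above Ifngr1 (28.8 ± 2.07) without overlap, the reverse of the wild-type order. Il23r, at 10.1 ± 1.03, overlapped Ifngr2 (10.1 ± 0.30) and lay above Il6st (7.48 ± 0.50), and Il6ra and Il10ra now overlapped. In every library, the chains of the other 4 receptors were unequal by at least 2.60-fold, whereas Il12rb2 and Il12rb1 differed by at most 2.18-fold.

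**Figure D4:**
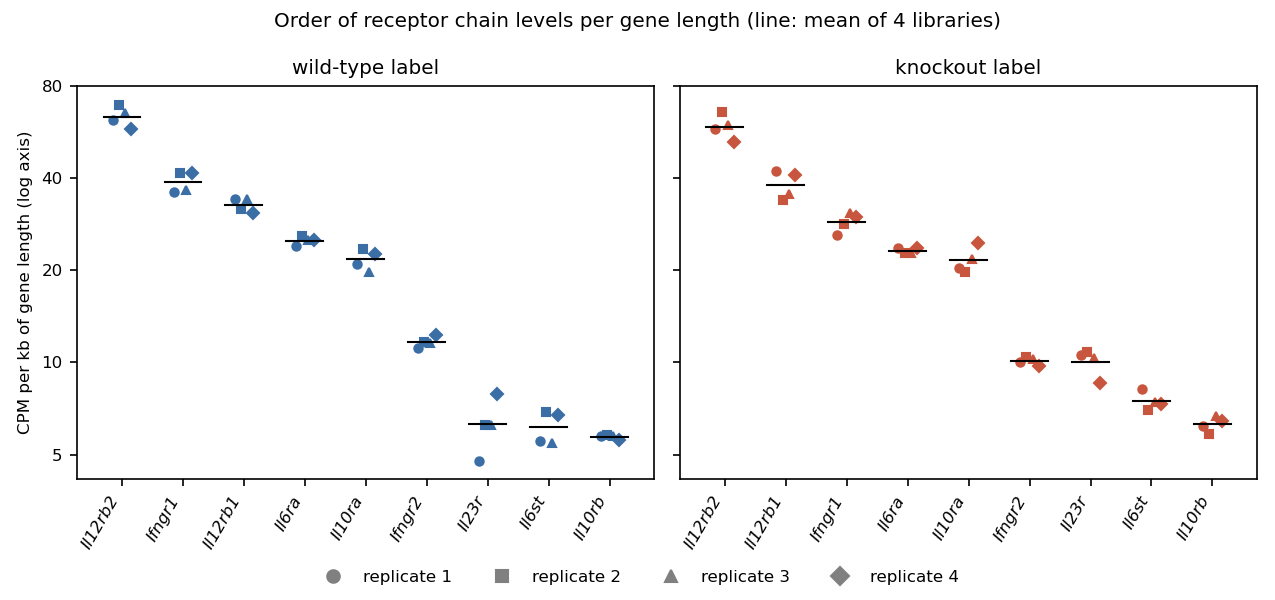
Level of each chain in TMM-scaled CPM per kb of gene length (log axis) in the 4 libraries of each label, in descending order of the mean (line); symbols mark replicates 1 to 4. Ifngr1 and Il12rb1 exchange places between the labels, and Il23r moves from 6.28 to 10.1, level with Ifngr2.

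Genes were compared with each called chain by the root mean square distance between mean-centred log2 CPM profiles over the 8 libraries. The 11560 tested genes compared averaged 1 CPM or more, and predicted or clone names and the receptor chains themselves were left out. Among them Il23r was closest to Gbp7, an interferon-induced guanylate-binding protein gene (distance 0.074), then to Dpysl2 (0.11) and Gpm6b (0.11). Gbp7 rose from 30.8 to 50.7 CPM (log2 fold change 0.72). Ifngr1 was closest to the deubiquitinase gene Stambpl1 (0.036), to Clcf1, a cytokine of the gp130 family (0.055), and to Osbpl3 (0.058). Clcf1 fell by 0.46 on the log2 scale. Il12rb1 had Srebf1, Puf60 and E2f4 (0.032 to 0.034), Il6st had Ints9, Rcbtb2 and Zhx3 (0.037 to 0.063), and Ifngr2 had Cd40lg, Lbr and Wapl (0.024 to 0.030). Distances of genes with small changes are small by construction, so they are not comparable between chains. Genes nearest a called chain share its difference between the labels by the way they were chosen. The changes of Gbp7 and Clcf1 are therefore no separate result.

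The 8 ligand genes listed for these receptors were scarce in the same libraries and 4 of 6 tested fell, where 14.6% of all tested genes were called lower. The B cell markers fell beside them (median -0.94). The list left out Il22 and Clcf1, whose receptors use IL-10Rβ and gp130. Both were more abundant than the listed ligands, and Il22 rose while Clcf1 fell. Il10 fell from 14.8 ± 1.40 to 7.51 ± 1.42 CPM (SD, n = 4 each), and the log2 fold change came to -0.99 (SE 0.14, edgeR adjusted p = 1.27e-05). Ebi3, a subunit of interleukin-27, Il27 itself and Il12a, the smaller subunit of interleukin-12, had log2 fold changes of -0.81, -3.01 and -2.16 (edgeR adjusted p = 0.000267 or less), the last 2 from under 3 CPM. In knockout 1 to 4, Il27 was at 0.071, 0.69, 0.46 and 0.13 CPM and Il12a at 0.57, 0.14, 0.85 and 0.39 CPM. Counts were as low as 1 and 2 in a library, so the sizes of these 2 falls are uncertain. Il27 had -4.64 with knockout 1 and 4 alone and -2.22 with knockout 2 and 3 alone, on the same few counts. Ifng was at 1.70, 1.65, 3.27 and 1.31 CPM in wild type 1 to 4 and at 1.34, 1.32, 0.69 and 1.102 CPM in knockout 1 to 4, with overlap, and did not pass (edgeR adjusted p = 0.0668). Il23a, the interleukin-23 subunit, stood at 0.92 and 0.66 CPM and did not pass (0.487). Il6 and Il12b were too low to test, with at most 11 and 6 counts in any library.

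Of 14 other related receptor chains, 5 were tested, and 2 rose and 1 fell. Of all tested genes, 15.7% were called higher and 14.6% lower. Il27ra, which pairs with gp130 to bind interleukin-27, rose with Il6st: it had 111.9, 97.7, 102.5 and 99.3 CPM in wild type 1 to 4 and 135.1, 121.1, 121.1 and 140.6 CPM in knockout 1 to 4. The groups did not overlap (log2 fold change 0.33, SE 0.071, edgeR adjusted p = 0.00102). Il11ra1, another partner of gp130, fell by 0.50 on the log2 scale from 15.5 CPM, and Il20rb, low at 3.67 and 5.45 CPM, rose by 0.57, a call that ended without wild type 2 or 4 or knockout 1 or 2 (adjusted p from 0.0635 to 0.0935) and with either pair of knockout libraries alone (0.0503 and 0.0917). The other gp130 partners Lifr and Osmr had at most 8 and 12 counts in a library, and Il22ra1 had 0 in all 8.

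Among the kinases bound to these chains, Jak2, which serves IFNGR2, IL-12Rβ2, IL-23R and gp130, rose most. It had 356.7, 405.6, 354.0 and 396.9 CPM in wild type 1 to 4 and 519.7, 582.5, 577.0 and 524.4 CPM in knockout 1 to 4. All knockout-labelled libraries were far above the rest (log2 fold change 0.54, SE 0.065, edgeR adjusted p = 1.1e-06). Jak1 had 0.013 (95% interval -0.10 to 0.13) and did not pass. Jak3, which serves the common gamma chain, and Tyk2, the partner of IL-12Rβ1, passed at -0.20 and 0.21 (edgeR adjusted p = 0.0236 and 0.0462) with overlapping libraries. The Jak3 call ended without wild type 1, 2 or 3 or knockout 2 or 3, with no filter on low counts and with only knockout 1 and 4 (adjusted p up to 0.137). That of Tyk2 ended in 10 of 17 alternatives (adjusted p up to 0.507), including DESeq2, limma-voom and both other scalings.

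Of 7 STAT genes, 1 rose, 1 fell and 5 did not pass. Stat4, which carries the interleukin-12 signal, fell from 45.6 ± 5.97 to 31.2 ± 1.82 CPM (log2 fold change -0.55, SE 0.093, edgeR adjusted p = 9.93e-05). Stat3, which carries the signals of interleukin-6, interleukin-23 and interleukin-10, rose from 401.3 ± 20.1 to 465.0 ± 13.3 CPM (SD, n = 4 each; log2 fold change 0.21, edgeR adjusted p = 0.0084), a call that ended without wild type 4 (0.0517). Of 16 feedback inhibitors, 4 rose and 2 fell, where 15.7% of all tested genes were called higher and 14.6% lower. With library totals 3 were higher and 5 lower, and with 1 library left out 3 to 4 were higher and 1 to 3 lower. Cish, Ptpn1 and Socs2 rose by 0.33, 0.28 and 0.47 and Pias2 fell by 0.33 on the log2 scale. Without knockout 2, or with either pair of knockout libraries alone, the Socs2 call ended (adjusted p from 0.0623 to 0.235). Socs3, the inhibitor that binds gp130, had -0.14 and did not pass (adjusted p = 0.0849).

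Of 16 genes listed as targets of STAT3 or STAT4, 2 rose, 8 fell and 6 did not pass, with a median log2 fold change of -0.17 (15.7% of all tested genes were called higher and 14.6% lower). Il18r1, the interleukin-18 receptor chain that interleukin-12 induces, fell from 104.8 ± 10.3 to 55.6 ± 3.22 CPM (SD, n = 4 each; log2 fold change -0.91, edgeR adjusted p = 6.11e-09), Furin and Fosl2 fell by 0.47 and 0.31, and Hlx, a homeobox factor of Th1 cells, rose by 1.12 on the log2 scale. These counts moved with the processing: with library totals 1 was higher and 10 lower, without the low-count filter 3 were higher and 4 lower, and without wild type 2 it was 1 and 3. Leaving out wild type 3 or 4, or knockout 4, left 5 lower, leaving out knockout 1 left 4, and knockout 1 and 4 alone gave 5. Of 14 interferon-gamma targets tested, 8 rose, 2 fell and 4 did not pass, with a median of 0.25. Beside them Ifngr1 fell, as did Ifngr2 by less, with a call that held in only 8 of 17 alternatives. Gbp2, a guanylate-binding protein gene, had 334.4, 369.8, 328.2 and 435.8 CPM in wild type 1 to 4 and 1248, 1270.5, 1115 and 1104 CPM in knockout 1 to 4 (log2 fold change 1.69, edgeR adjusted p = 9.8e-13). Gbp4 and Gbp5 rose by 1.01 and 0.87, and Irf8, which is also a factor of B cells and dendritic cells, fell by 0.69 on the log2 scale. Cd274, the other target that fell, had a log2 fold change of -0.35 without overlap between the labels (edgeR adjusted p = 0.0011). All these genes also answer to other signals, type I interferon among them.

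**Figure D5:**
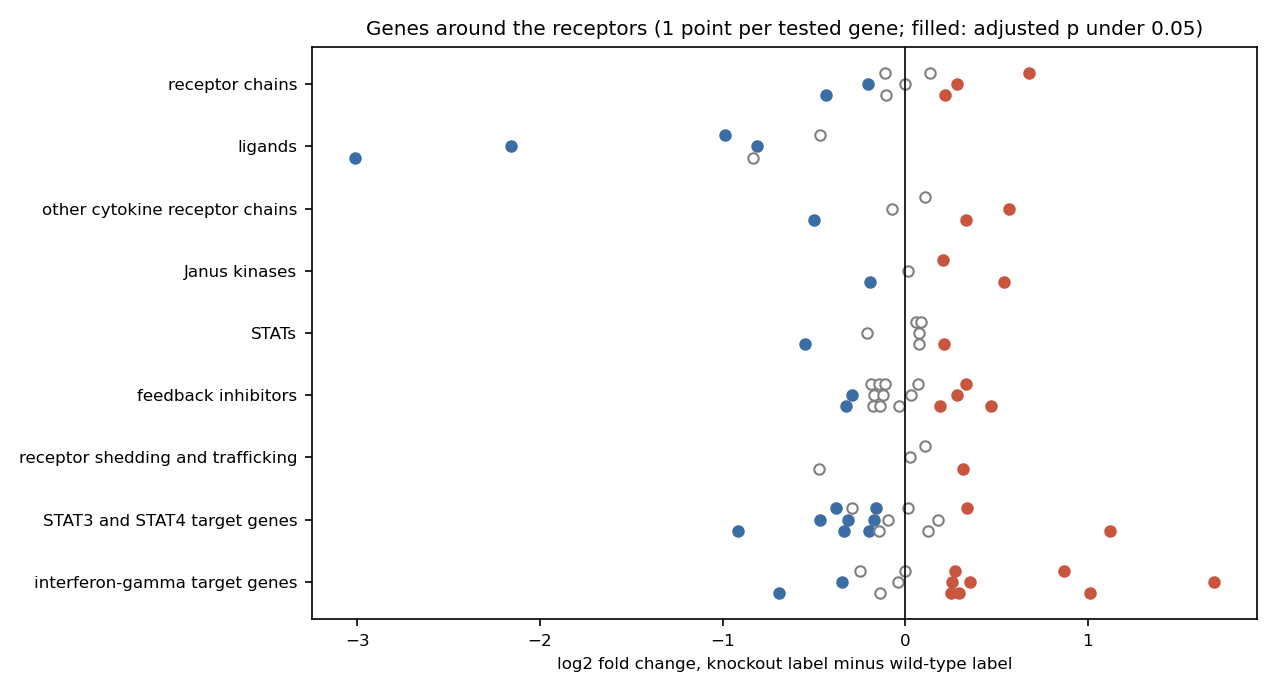
Log2 fold change, knockout label minus wild-type label, of each tested gene in the receptor list and 8 lists around it; filled points have an adjusted p under 0.05 (red higher, blue lower). Among the listed ligands, which leave out Il22 and Clcf1, no gene rose and 4 of 6 fell, while 8 of 14 interferon-gamma targets rose. Of all tested genes, 15.7% were called higher and 14.6% lower.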

How the data were processed

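The members and the gene lists were chosen with earlier results of these data known. The deposited file holds raw counts of reads for each gene in 8 libraries, beside gene lengths and positions. The authors used fastp, per the submitters' processing notes, which state no version. The sources used here do not give the aligner, counter, annotation, strand setting or build. Of 54532 identifiers, 54495 were in GENCODE M21 (GRCm38), 53585 with the same start and end. Per the labels' protocols, polyadenylated RNA was primed with random hexamers and no strand-marking step is named, so overlapping genes may share or lose reads.

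Genes were kept by filterByExpr (minimum count 10, minimum total 15), scaled by TMM and tested, two-sided, with edgeR 4.0.16 (quasi-likelihood F-test, genotype label alone) in R 4.3.3, with Benjamini-Hochberg adjustment at 0.05. SE is the log2 change divided by the root of F. Chain ratios used exact permutation over 70 assignments. Levels per length used the deposited gene length. Steps were tested on simulated counts. Named besides the members were Cyp1b1, up to 4 called genes of smallest p per list, the 3 nearest profiles of each called chain and genome neighbours. Serbp1 was added after annotation overlaps were seen, and genes such as Adam10, Il23a, Ifng, Jak1 and Socs3 were added for their roles after their values were seen. Cd274 was added as the other interferon-gamma target that fell. Alternatives were other scalings and filters, a replicate block, each library left out, pairs of knockout libraries, DESeq2 1.42.0 and limma-voom (limma 3.58.1). The pairs were chosen by the likeness of the libraries in these same data, so p-values with a pair alone are descriptive. Every pair of same-label libraries differed beyond sampling noise (chi-square 3.69 to 12.3 a gene), and none was merged.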

Additional observations from a re-analysis of the deposited data

Results flagged for a closer look

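In 148 groups of 4 libraries checked for a value far from the other 3, for the named genes and the chain ratios, 4 were found, none of them a receptor chain or a ratio. Chance marks about 1 group in 20. Socs2 was high in knockout 4 at 187.6 CPM, where the others had 151.0 to 154.5 CPM. Hlx was high in wild type 4 at 8.80 CPM, with the others from 6.83 to 7.16 CPM. Cd79b, a B cell marker, was low in knockout 2 at 10.2 CPM, with the others from 12.8 to 13.2 CPM. Gzma was high in wild type 1 at 15.3 CPM, with the others from 13.5 to 13.7 CPM.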

How the results depend on the processing

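Over 17 alternatives, no named gene that was called turned its direction, and 45 of 68 named genes, 4 of the 9 receptor chains among them, kept the same call in each. Leaving out 1 library in turn gave 3559 to 4679 called genes and 3 to 5 called chains. With knockout 2 and 3 alone 2 chains were called, Il23r and Ifngr1. The difference in Il12rb2/Il12rb1 was -0.55 (log2) with knockout 1 and 4 alone and -0.097 with 2 and 3 alone, and its cause was not tested. With 1 library left out the smallest exact p is 0.0571, so ratios were judged there by size only. Scaling by library totals turned the split of called genes from 2272 higher and 2108 lower to 1745 and 2689. Same-numbered replicates deviated together only weakly (r from 0.051 to 0.091), beside r from -0.093 to 0.057 for replicates of unlike number. These values do not settle whether the numbers pair the libraries, and the main fit does not use them as pairs. With replicate number as a block 4936 genes and the same 5 chains were called, and the paired sign-flip test of 4 differences cannot go below 0.125. Il23r rests on the fewest counts of the chains.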

Other observations

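Among 8 markers of Th17 cells, 1 rose and 5 fell (edgeR adjusted p under 0.05), with a median log2 fold change of -0.27, where 14.6% of all tested genes were called lower. The falls numbered 2 without wild type 2, wild type 3, knockout 1 or knockout 4 and with knockout 2 and 3 alone (median then -0.14), and 3 without wild type 1, without knockout 3 or with no low-count filter. Ccr6, the chemokine receptor typical of this lineage, went down from 38.1 ± 3.23 to 13.3 ± 2.10 CPM (4 libraries each, SD), and Il22 rose from 99.6 ± 18.1 to 213.8 ± 34.9 CPM. Maf fell by 0.39 and Rora by 0.34 on the log2 scale, the latter with overlapping libraries. The Rora call ended without wild type 2 or 3 or knockout 1 or 4 (adjusted p from 0.0523 to 0.0669), and Rora had -0.59 with knockout 1 and 4 alone and -0.11 with knockout 2 and 3 alone (adjusted p = 0.347). Of 8 CD4 T cell markers Lck rose by 0.19, Cd2 fell by 0.26 and 6 did not pass. The Lck call ended in 8 of 17 alternatives, namely without any 1 of the wild-type-labelled libraries or knockout 1 or 4 (adjusted p from 0.0553 to 0.119), with library totals (0.114) and with knockout 2 and 3 alone (0.074 on the log2 scale, adjusted p = 0.412). Of 4 dendritic cell markers tested, Batf3 rose by 0.29, which activated T cells also express, and Flt3 and Zbtb46 fell (-1.08 and -0.86). The Batf3 call ended without wild type 2 (adjusted p = 0.0619), without wild type 4 (0.069) and with knockout 2 and 3 alone (0.0698). Of NK cell markers Gzma and Klrd1 fell (-0.94 and -0.88) and 2 others did not pass, Cd68 was the 1 monocyte and macrophage marker tested and fell by 0.90, and neither of 2 CD8 T cell markers passed. Among B cell markers Blk, Fcrla, Spib and Cd79b fell (log2 fold changes of -1.44, -2.96, -1.31 and -0.94), while Ighm, the most abundant, had 345.9 and 342.5 CPM and did not pass.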
